A study of Xenopus laevis with 12 samples.

Results

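Whole brains of Xenopus laevis tadpoles at Nieuwkoop-Faber (NF) stage 45 were compared between animals exposed to thioridazine as embryos and untreated controls. Titles of the exposed samples describe the animals as having thioridazine-induced brain abnormalities. The comparison used 6 of the 12 RNA-seq libraries of the series, 3 control and 3 thioridazine, chosen by their stage label. Exposed embryos were in 90 µM thioridazine from NF 14 to NF 26, which spans neurulation, and were then reared without it. Control embryos were wild type and shared the same temperature change during that window. No transgene or mutation is labelled in either group. The brains were taken at NF 45, when the tadpole starts to feed, so the libraries record a state long after the drug was removed. The other 6 libraries, from NF 47, entered the fit to estimate the spread and are set beside the results where the same gene could be read in animals not used for the NF 45 contrast. The labels give each library a replicate number but not its number of brains or their clutches, so p-values measure the spread between these samples, which may be partly technical.

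Thioridazine is a phenothiazine antipsychotic that blocks D2-type dopamine receptors and several other receptors and channels. The NF 14 to NF 26 window is when the neural plate folds and closes and the brain receives its first regional identity. Neurons, glia, the pituitary and the immigrant macrophages of the brain are then formed or enter over the following days. Beside the brain proper, dissected tadpole brain carries meninges with black melanophores and can carry fragments of skin, cartilage, muscle, eye and other neighbouring tissue. In bulk RNA, fewer cells of a type and less RNA per cell cannot be told apart.

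The libraries held 12843954 to 18164871 reads counted in genes, and each had reads in 30408 to 30979 genes. Markers of postmitotic neurons summed to between 12079 and 15978 CPM (read counts scaled to the library's normalized size) in all 6, so the neuronal genes of the labelled tissue were present throughout. Markers of other tissues differed between single libraries. Skin and other epithelial markers summed to 519 and 423 CPM in the control and thioridazine libraries numbered 2 and to between 3249 and 4611 CPM in the other 4. Liver, pancreas and gut markers summed to 2510 CPM in control replicate 3 and to between 621 and 690 CPM in the other 5. Both libraries numbered 2 were also highest in muscle markers, at 4735 and 6534 CPM, against 1660 to 2776 CPM elsewhere.

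Growth hormone transcripts were lower in exposed brains, and single genes of phagocytes, lysosomes, pigment cells and transporting epithelia were higher. Most of these calls came from fits that took the shared replicate number into account. Of 26570 genes tested, edgeR's quasi-likelihood test without that number called 0 at an adjusted p under 0.05, with 526 genes, or 1.98%, at an unadjusted p under 0.05. DESeq2 without the number called 9 genes (0.0339%), all of them higher after thioridazine, and limma-voom called 0, with 1271 genes at an unadjusted p under 0.05. With the replicate number as a block within stage, 6 genes (0.0226%) passed in edgeR, of which 5 were higher (0.0188%) and 1 lower (0.00376%), and 1521 genes (5.72%) had an unadjusted p under 0.05. The block gave 35 calls (0.132%) in DESeq2, of which 27 were higher (0.102%) and 8 lower (0.0301%). In limma-voom it gave 65 calls (0.245%), 58 higher (0.218%) and 7 lower (0.0263%). All 6 genes of the blocked edgeR fit were also among the calls of the blocked DESeq2 and limma-voom fits. These fits took each gene's spread from all 12 libraries. Fitted to the NF 45 libraries alone, blocked edgeR kept only c1qtnf9b.L of the 6 (adjusted p 0.0107). It no longer called gh1.S (0.14), lgals9c.S (0.206), LOC108700424 (0.14), LOC108719682 (0.144) or LOC108718490 (0.225). Calls depended on single pairs of libraries. Blocked edgeR called 10 genes without the libraries numbered 1, 0 without those numbered 2 and 155 without those numbered 3.

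**Figure D1:**
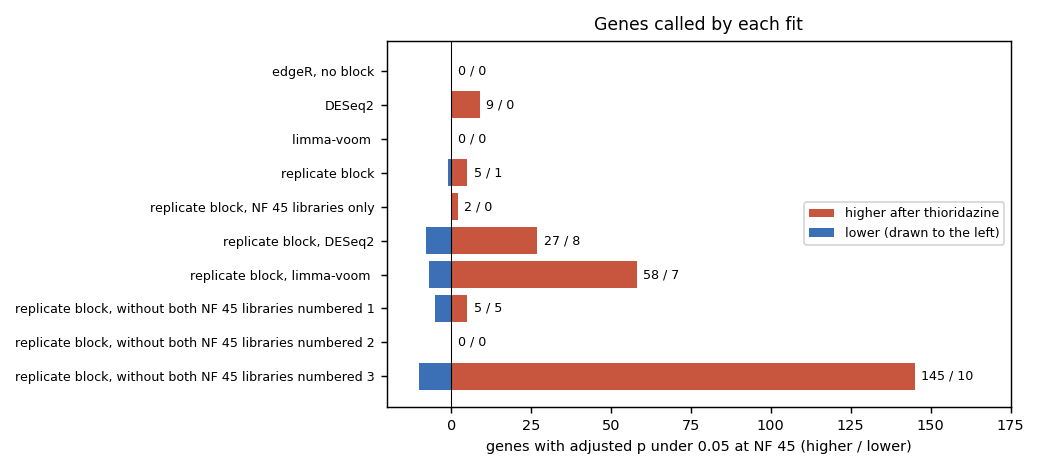
Number of genes with an adjusted p under 0.05 at NF 45 in 10 fits, with genes higher after thioridazine drawn to the right and genes lower drawn to the left. edgeR without the block called 0 genes, edgeR with the block 6, and the blocked fit without both libraries numbered 3 called 155.

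The 3 same-numbered pairs did not differ from their controls in the same way. Across the 26570 genes, the log2 CPM difference of pair 1 correlated with that of pair 2 at r = 0.235 and with that of pair 3 at r = -0.188, and pairs 2 and 3 correlated at r = -0.0128. These are correlations across genes, which are not independent replicates. The data set only number 2 apart from the others: control replicate 3 deviated from its group mean as much like thioridazine replicate 1 (r = 0.483) as like thioridazine replicate 3 (r = 0.449), so pairs 1 and 3 rest on the labels' numbers. Pair 3 had 1660 genes more than 1 log2 unit below its control, against 308 in pair 1 and 466 in pair 2. All 3 pairs had the same sign at 6452 genes (24.3%), 3027 of them higher (11.4%) and 3425 lower (12.9%). CPM values of the groups did not overlap at 1059 genes (3.99%), with 645 higher after thioridazine (2.43%) and 414 lower (1.56%). Without regard to any test, 49.1% of genes were higher.

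The blocked edgeR fit set 5 genes higher. The largest difference was at c1qtnf9b.L, which the RefSeq gene table lists as a long non-coding RNA. It had 3, 1 and 0 reads in control replicates 1 to 3 and 98, 278 and 44 reads in thioridazine replicates 1 to 3. Every exposed library lay far above every control. Summed over the libraries of a group, 4 control and 420 thioridazine reads gave a CPM ratio of 93.8, with an exact 95% counting interval of 36.4 to 346, and the blocked fit gave an adjusted p of 0.00229. The same gene at NF 47 stood at 0, 0 and 0.141 CPM in controls and at 0, 0.802 and 3.06 CPM after thioridazine, so there it was seen in 2 of the 3 exposed libraries.

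Galectin 9c, lgals9c.S, belongs to a family of sugar-binding proteins that immune cells carry and release. It stood at 10.9, 13.7 and 8.55 CPM in controls and at 22.3, 35.5 and 14.3 CPM after thioridazine. The groups did not overlap, although exposed replicate 3 lay just above the highest control. The blocked log2 fold change was 1.07 ± 0.143 (SE, n = 3 per group), with an edgeR adjusted p of 0.0338 with the block and 1 without it.

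The other 3 genes called higher are protein-coding and have no descriptive name. LOC108719682 rose from 2.9, 2.99 and 3.7 CPM to 9.1, 7.03 and 12.9 CPM (blocked edgeR log2 fold change 1.57 ± 0.173 SE, n = 3 per group, adjusted p 0.0134). LOC108718490 rose from 1.95, 2.56 and 2.54 CPM to 6.67, 5.91 and 9.05 CPM (1.59 ± 0.212, adjusted p 0.0338). These were the genes that edgeR with the block, DESeq2 with and without it, and limma-voom with it all called, and in both of them the groups were well apart. LOC108700424 stood at 3.55, 0.997 and 4.85 CPM in controls and at 9.32, 3.46 and 16.3 CPM after thioridazine, so its groups overlapped while every pair rose, by 1.63 ± 0.188 on the log2 scale with the block (adjusted p 0.0145).

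**Figure D2:**
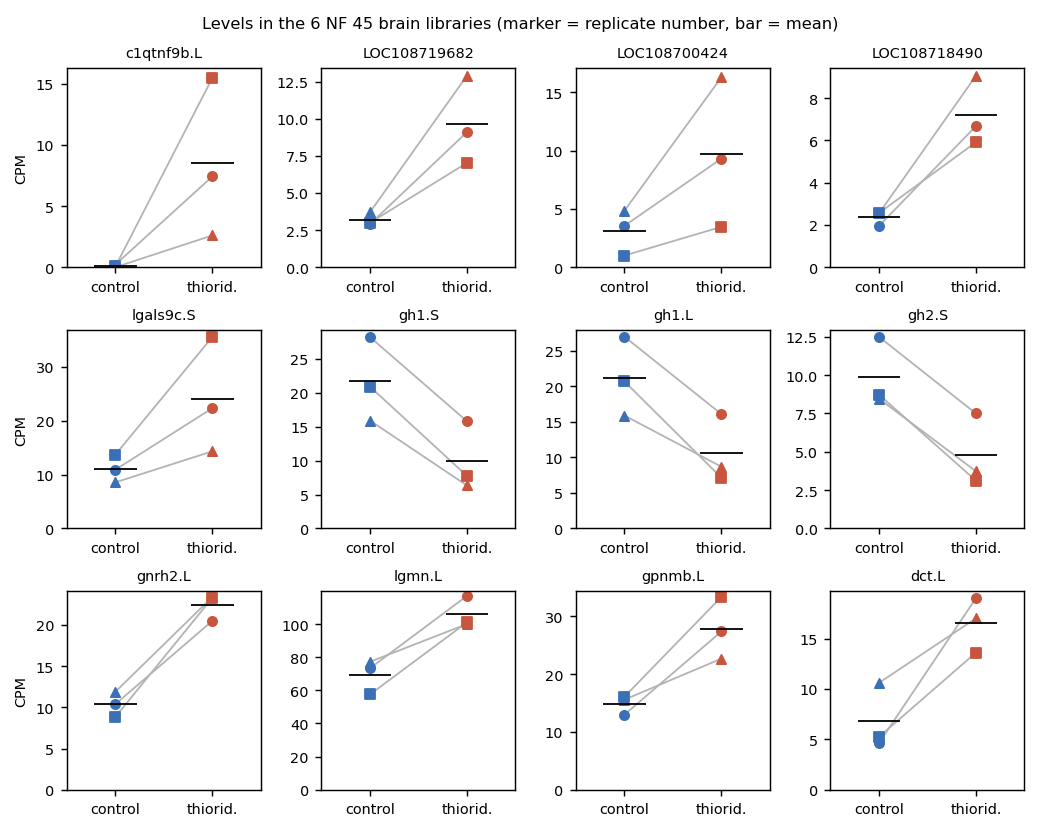
CPM of 12 genes in each of the 6 NF 45 libraries, with controls in blue, thioridazine in red, a line joining each same-numbered pair and a bar at the group mean; circles, squares and triangles are replicates 1, 2 and 3. The line rises in all 3 pairs of 9 genes and falls in all 3 pairs of gh1.S, gh1.L and gh2.S.

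Growth hormone genes made up 3 of the 11 genes called lower by at least 1 fit. Growth hormone is made by somatotrophs of the anterior pituitary, and amphibians carry more than one gene for it. The gene called by the blocked edgeR fit, gh1.S, stood at 28.2, 20.9 and 15.9 CPM in controls and at 15.8, 7.75 and 6.33 CPM after thioridazine. The highest exposed library lay just under the lowest control, and each exposed library was well below its own pair. The blocked log2 fold change was -1.18 ± 0.153 (SE, n = 3 per group), with an edgeR adjusted p of 0.0338 with the block and 1 without it. Its homeologous copy gh1.L stood at 27, 20.7 and 15.9 CPM against 16.1, 7.14 and 8.69 CPM, and gh2.S at 12.5, 8.73 and 8.47 CPM against 7.5, 3.12 and 3.73 CPM. Both were called lower by the blocked DESeq2 fit, with adjusted p of 0.000492 and 0.0092, and missed in the blocked edgeR fit at 0.0785 and 0.0819. X. laevis is allotetraploid, and the .L and .S copies of a gene are alike in sequence, so reads may be split between them and single-copy values are uncertain to that extent.

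The other genes that blocked DESeq2 called lower have no descriptive name, and in each of them the groups overlapped while every pair was lower. The long non-coding RNA LOC108699969 stood at 3.69, 8.85 and 1.54 CPM in controls and at 1.74, 2.29 and 0 CPM after thioridazine (blocked DESeq2 adjusted p 0.0351). Blocked limma-voom also called it (0.0078), and at NF 47 its log2 fold change was -0.04. LOC108710732 stood at 90.2, 84.5 and 56.4 CPM against 47.5, 66.3 and 24.9 CPM (blocked DESeq2 log2 fold change -0.81, adjusted p 0.00206). The remaining calls were LOC108713841 (-0.64, adjusted p 0.0204), the pseudogene LOC108713930 (-0.68, 0.0204) and the long non-coding RNA LOC108707093 (-0.61, 0.0476). Blocked edgeR called none of these 5, with adjusted p between 0.311 and 0.481. Blocked limma-voom alone called srrm3.L (0.0427), lcat.L (0.03) and neurod2.L lower.

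The pituitary list as a whole did not move as one. Of 26 pituitary hormone and factor genes tested, the growth hormone genes included, 14 were higher and 12 lower. Their median log2 fold change was 0.03 beside -0.00 over all genes. In all 3 pairs 11 were lower (12.9% of all genes were) and 5 higher. In blocked edgeR 8 had an unadjusted p under 0.05 on the lower side (2.99% of all genes), the growth hormone genes among them. On the higher side 2 did (2.73%). The following genes were picked after their values were seen, and none was called. Transcripts of pou1f1.L, the factor that somatotrophs, thyrotrophs and lactotrophs depend on, stood at 0.507, 0.81 and 0.77 CPM in controls and at 0.0758, 0.502 and 0.118 CPM after thioridazine. The glycoprotein hormone alpha subunit cga.S stood at 8.4, 3.55 and 4.08 CPM against 5.31, 2.68 and 2.37 CPM. Each was lower in every pair. Only for pou1f1.L were the groups apart, and barely, with its lowest control at 0.507 CPM and its highest exposed library at 0.502 CPM. Such low levels rest on few reads. Prolactin prl.2.S, the product of lactotrophs, stood at 11.7, 15.1 and 15.2 CPM against 18.6, 11.8 and 20 CPM and showed no common direction.

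Hypothalamic and other peptide genes were partly higher. Of 91 genes for neuropeptides and their receptors, 57 were higher and 34 lower (median log2 fold change 0.06). In all 3 pairs 29 were higher (11.4% of all genes were) and 11 lower (12.9%). Without control replicate 3 the split was 44 higher and 47 lower, with a median of -0.01. Gonadotropin-releasing hormone 2, gnrh2.L, which midbrain neurons make, stood at 10.4, 8.85 and 11.9 CPM in controls and at 20.5, 23.3 and 23.4 CPM after thioridazine. The groups were clearly apart. DESeq2 called it with and without the block, with adjusted p of 0.000364 and 0.00183, while edgeR did not (0.107 with the block). Oxytocin-family oxt.L stood at 19.6, 11.3 and 10.2 CPM against 32.2, 17.6 and 27.1 CPM and was called by the blocked DESeq2 fit at 0.011. Its copy oxt.S stood at 12.1, 8.41 and 7.55 CPM against 17.7, 12.8 and 24.1 CPM, and was not called (0.0935). Prodynorphin pdyn.S, an opioid precursor, stood at 10.1, 9.1 and 9.32 CPM against 13.2, 13.8 and 15.9 CPM, with the groups apart, and no fit of all 6 libraries called it.

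Macrophage genes were mostly higher in pairs 1 and 2 and mixed in pair 3. Of 35 macrophage and microglia genes tested, 30 were higher and 5 lower (median log2 fold change 0.60). In 12 of them the groups did not overlap, all higher (2.43% of all genes), and 18 had an unadjusted p under 0.05 in the blocked edgeR fit, all higher (2.73% of all genes). This list and the others were chosen with earlier results of these data known. Their counts are therefore no test against the shares over all genes. The macrophage list's median difference was 0.61 in pair 1, 1.06 in pair 2 and -0.08 in pair 3. Its summed level was 574, 272 and 666 CPM in controls and 814, 487 and 676 CPM after thioridazine, and these ranges overlapped. Without the libraries numbered 2 the median was 0.38, with 26 higher and 9 lower. Of the list, blocked edgeR called lgals9c.S alone. The further members tyrobp.L, hmox1.S and c1qa.L were called by the blocked limma-voom fit only and are named because of it. The adaptor of myeloid receptors tyrobp.L stood at 2.17, 1.31 and 1.92 CPM against 3.94, 5.86 and 4.08 CPM, with an adjusted p of 0.021, and its groups were apart. The complement subunit c1qa.L stood at 3.62, 7.48 and 6.31 CPM against 6.75, 14.9 and 5.32 CPM and was lower in pair 3.

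Lysosomal proteases and hydrolases were mostly higher by smaller amounts, with nearly equal medians in pairs 1 and 2. Of 43 protease and hydrolase genes, 35 were higher and 8 lower (median log2 fold change 0.22, and 0.35, 0.34 and 0.08 in pairs 1, 2 and 3). In blocked edgeR 16 of them had an unadjusted p under 0.05, all higher (2.73% of all genes). Legumain lgmn.L, an asparaginyl endopeptidase, stood at 73.3, 57.5 and 77.2 CPM in controls and at 117, 101 and 100 CPM after thioridazine. Every exposed library exceeded every control, and DESeq2 called the gene with and without the block (0.000926 and 0.042) where blocked edgeR did not (0.107). Its copy lgmn.S stood at 53, 50.9 and 33.3 CPM against 62.4, 37.3 and 26.8 CPM and was lower in pairs 2 and 3. Cathepsin Z, ctsz.S, stood at 29.3, 31.1 and 54.9 CPM against 47.5, 55.2 and 67 CPM (blocked DESeq2 adjusted p 0.036). Control replicate 3 lay above exposed replicate 1, so the groups overlapped. Genes of lysosome membrane, acidification and lipid export followed another order of pairs. Of 50 tested, 40 were higher and 10 lower (median log2 fold change 0.11), with pair medians of 0.15, -0.01 and 0.17, so the list was level in pair 2. Of 50 autophagy genes 20 were higher and 30 lower, with a median of -0.06.

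A granulocyte gene and a matrix-remodelling gene, picked from the calls, were higher as well. Eosinophil peroxidase epx.L stood at 24.3, 10.4 and 16.7 CPM in controls and at 35, 28.3 and 28.6 CPM after thioridazine. Matrilysin mmp7.L, a matrix metalloproteinase, stood at 29.3, 12.9 and 19.8 CPM against 47.4, 33.6 and 31.2 CPM. In both genes the lowest exposed library exceeded the highest control, and the blocked DESeq2 fit called both, with adjusted p of 0.00288 and 0.000364. The NF 47 libraries gave log2 fold changes of 0.90 for epx.L and 0.81 for mmp7.L. The granulocyte and lymphocyte list, which holds epx.L, had no common direction, with 11 of 20 genes higher, 9 lower and a median log2 fold change of 0.05. In all 3 pairs 4 of its genes were higher (11.4% of all genes were) and 2 lower (12.9%). Beside epx.L, the granulocyte genes mpo.L and prtn3.S were higher in every pair, with overlapping groups and no call.

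**Figure D3:**
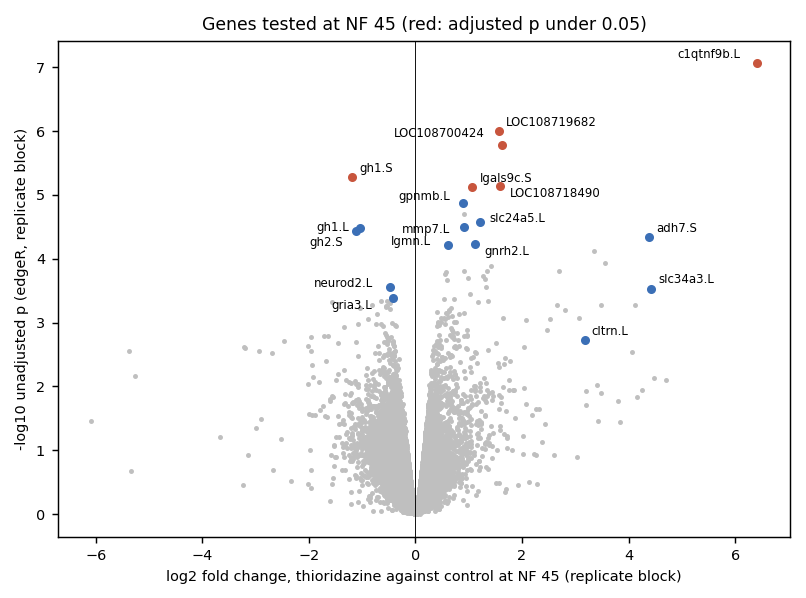
Each point is 1 of the genes tested at NF 45, with the log2 fold change of the blocked edgeR fit on the x axis and -log10 of its unadjusted p on the y axis; red points passed an adjusted p of 0.05 and blue points are named in the text. The 6 red points include 1 on the lower side, gh1.S, and c1qtnf9b.L lies farthest to the upper right.

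Pigment-cell genes formed a further group on the higher side. Melanophores make melanin from tyrosine in melanosomes. The 21 symbols of this list were chosen after values of these data were seen. Of 26 genes tested, 24 were higher and 2 lower (median log2 fold change 0.52), and the pair medians were 0.95, 0.55 and 0.14. Their summed level was 355, 293 and 467 CPM in controls and 701, 454 and 481 CPM after thioridazine, so control replicate 3 lay above exposed replicate 2. The melanosomal glycoprotein gene gpnmb.L, which macrophages also express, stood at 13, 16.1 and 15.6 CPM against 27.4, 33.4 and 22.7 CPM. Its groups were apart, blocked DESeq2 called it at 0.00206, and blocked edgeR stopped at 0.0513. Dopachrome tautomerase dct.L, a melanin-synthesis enzyme, stood at 4.63, 5.24 and 10.6 CPM against 19, 13.6 and 17 CPM (blocked DESeq2 adjusted p 0.00384). The melanosomal ion exchanger slc24a5.L stood at 3.84, 3.8 and 5.62 CPM against 9.78, 9.65 and 10.9 CPM (0.0221), and both genes were higher in every exposed library than in any control. The copy slc24a5.S was nearly level in pairs 1 and 2 and lower in pair 3, with 3.48, 3.61 and 1.77 CPM in controls against 3.41, 3.51 and 0.355 CPM. The list summed highest in replicate 3 among controls and in replicate 1 among exposed libraries. Retina and lens genes also summed highest in those 2 libraries, at 1564 and 1508 CPM. Whether melanophores or eye tissue attached to the dissected brains play a part in these differences was not tested.

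Single transporter genes typical of the kidney's proximal tubule, near silent in control brains, had more reads in exposed ones. The list they come from was also made after values were seen. The phosphate cotransporter slc34a3.L stood at 0.0724, 0.187 and 0.539 CPM in controls and at 1.29, 11.2 and 5.44 CPM after thioridazine. Collectrin cltrn.L, which carries amino acid transporters to the apical membrane, stood at 0.507, 0.436 and 0.924 CPM against 2.2, 12.9 and 4.49 CPM. The glucose cotransporter slc5a2.L stood at 0.507, 0.374 and 0.693 CPM against 0.985, 6.92 and 3.84 CPM. In all 3 genes exposed replicate 2 was highest and exposed replicate 1 lowest among the exposed, still above every control. Summed reads gave CPM ratios of 25.2 (exact 95% counting interval 13.9 to 50.9) for slc34a3.L, 11.5 (7.74 to 17.9) for cltrn.L and 8.2 (5.27 to 13.4) for slc5a2.L. DESeq2 called cltrn.L with and without the block (0.00288 and 0.0278), blocked limma-voom called slc5a2.L (0.0078), and no fit of all 6 libraries called slc34a3.L.

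Not all genes of that organ took part. Of 45 tubule and podocyte genes tested, 34 were higher and 11 lower, and in 10 of them the groups were apart, all higher (2.43% of all genes). Because the list was made after values were seen, these counts are no test against the share of all genes. The members were not all near silent in controls. The amino acid transporter subunit slc7a7.L stood at 7.6, 8.29 and 9.09 CPM against 12.4, 14 and 12.2 CPM, with the groups apart, and blocked limma-voom called it (0.0297). The list's summed level was 836, 569 and 850 CPM in controls and 912, 749 and 729 CPM after thioridazine, with overlapping ranges. The podocyte gene nphs1.S had no common direction, at 0.869, 1.75 and 1.39 CPM against 0.985, 2.45 and 0.887 CPM. Another, wt1.L, was too near 0 to show a direction, at 0, 0.436 and 0 CPM against 0, 0.446 and 0.237 CPM. Both are examples, and podocyte genes were not counted apart from tubule genes. Without the libraries numbered 2, the list had 23 genes higher and 22 lower, with a median log2 fold change of 0.06. At NF 47, slc34a3.L stood at 0.119, 0 and 0 CPM in controls and at 0.128, 5.98 and 1.56 CPM after thioridazine, and cltrn.L at 0.597, 0.264 and 0.281 CPM against 0.641, 3.94 and 1.63 CPM. There too exposed replicate 2 was the highest and exposed replicate 1 close to the controls. Whether neighbouring kidney tissue came with the brains was not tested.

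A few enzyme genes common to liver and kidney, picked from the calls and not from a list, were higher. Regucalcin rgn.L, a calcium-binding lactonase, stood at 0.652, 0.312 and 5.16 CPM in controls and at 17.4, 61.5 and 22.4 CPM after thioridazine. Xanthine dehydrogenase xdh.S, which makes uric acid, stood at 2.46, 0.187 and 3.7 CPM against 8.49, 5.08 and 9.05 CPM. The flavin monooxygenase fmo5.1.L stood at 0.0724, 0.125 and 1.15 CPM against 1.59, 4.96 and 3.25 CPM. In each gene control replicate 3 was the highest control and still lay below every exposed library. The blocked DESeq2 fit called them, with adjusted p of 0.00716, 0.000364 and 0.025, and blocked edgeR did not (0.781, 0.35 and 0.343). The alcohol dehydrogenase adh7.S, called by blocked limma-voom alone (0.0183), had 10 control and 268 thioridazine reads in all, a CPM ratio of 23.9 (exact 95% counting interval 12.8 to 50.5). The liver, pancreas and gut list had 2 of 23 genes higher and 21 lower, and 14 higher and 9 lower without control replicate 3, the library with most of these transcripts. Its urea-cycle enzyme cps1.L, named after its values were seen, stood at 0.796, 0.748 and 0.539 CPM against 0.455, 0.558 and 0.355 CPM, lower in every pair and uncalled. Its 30 control and 22 thioridazine reads gave a CPM ratio of 0.655. The exact 95% counting interval, 0.36 to 1.17, spans no change. The part of liver or kidney tissue in these values was not tested.

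**Figure D4:**
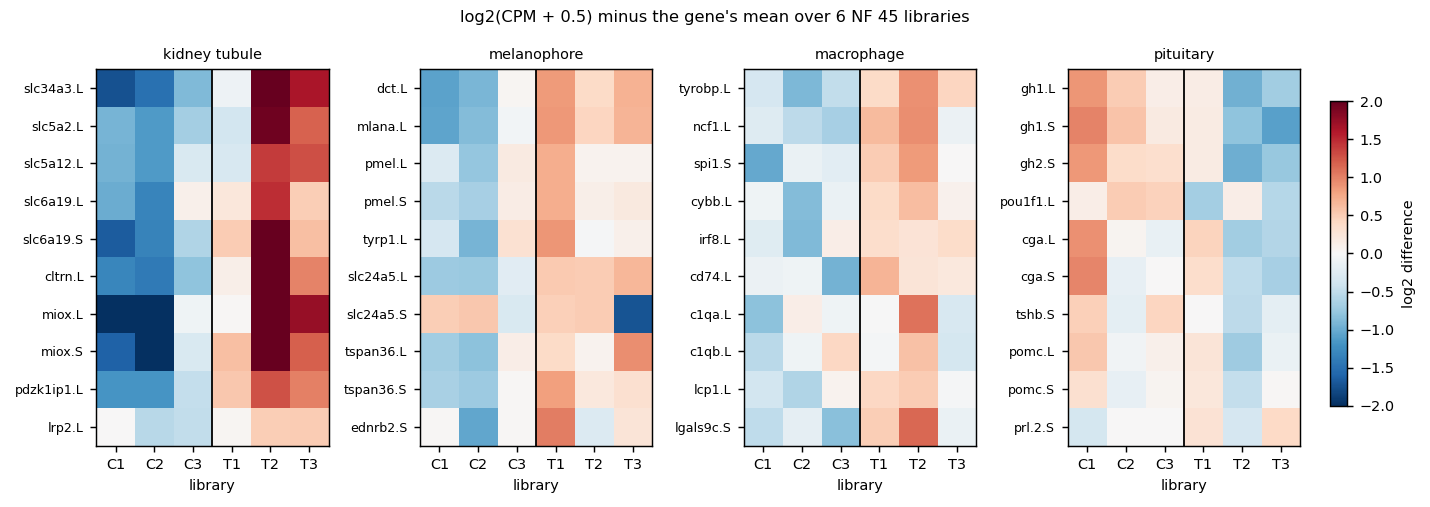
Log2(CPM + 0.5) of 40 genes minus each gene's mean over the 6 NF 45 libraries, in 4 panels of 10 genes picked after their values were seen; C1 to C3 are controls, T1 to T3 thioridazine, red is above and blue below the mean. Tubule genes are darkest in T2, slc24a5.S is lowest in T3, and gh1.L, gh1.S and gh2.S are above their mean in all controls.

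A synthesis and a breakdown gene of retinoic acid, a signal that patterns the hindbrain and eye, differed in opposite directions. They were not taken from a list of retinoic acid genes, and the pathway as a whole was not tested. Retinol dehydrogenase rdh10.L, which makes the precursor of retinoic acid, stood at 124, 96.2 and 134 CPM in controls and at 214, 116 and 173 CPM after thioridazine. It was higher in every pair while the groups overlapped, and blocked DESeq2 called it at 0.0476. The retinoic acid hydroxylase cyp26b1.L stood at 51.8, 61.7 and 54.3 CPM against 43.8, 39.2 and 39 CPM. All exposed libraries lay below all controls, but no fit of all 6 libraries called it (blocked edgeR log2 fold change -0.46 ± 0.114, adjusted p 0.426). The copy rdh10.S stood at 57.6, 41.3 and 59.2 CPM against 84.8, 56.1 and 71.3 CPM (blocked limma-voom adjusted p 0.0469). The copy cyp26b1.S stood at 5.65, 2.62 and 9.39 CPM against 5.31, 1.73 and 4.55 CPM and was not called. In both copies the groups overlapped.

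Glutamate receptor and transport genes leaned lower by small amounts. Of 42 glutamate receptor and transport genes, 11 were higher and 31 lower (median log2 fold change -0.15), and the pair medians were -0.20, -0.09 and -0.14. In all 3 pairs 11 were lower (12.9% of all genes were) and 1 higher (11.4%). In the blocked edgeR fit 7 had an unadjusted p under 0.05, all lower (2.99% of all genes were lower at that level). Their summed level was 2198, 2841 and 2012 CPM in controls and 2025, 2362 and 1670 CPM after thioridazine, with overlapping ranges. With single libraries left out, the list's median ran from -0.32 to -0.00, so the lean depended on which libraries were used. The AMPA receptor subunit gria3.L stood at 59.6, 93.2 and 44.2 CPM against 41.7, 74.3 and 32.7 CPM, and gria2.S at 83.7, 111 and 63.8 CPM against 55, 91.3 and 43.1 CPM. Each was lower in every pair, the groups overlapped, and neither was called (adjusted p 0.311 in blocked edgeR).

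The neuronal transcription factor neurod2.L, which acts in differentiating excitatory neurons, stood at 58.6, 57.5 and 50.2 CPM in controls and at 40.9, 36.6 and 41.3 CPM after thioridazine. Its groups were apart. It was called by the blocked limma-voom fit alone, with an adjusted p of 0.00996, against 0.247 in blocked edgeR. The copy neurod2.S stood at 18.4, 23.9 and 14.3 CPM against 12.7, 16.8 and 11.4 CPM. The list that holds neurod2.L, of dorsal forebrain and excitatory neuron factors, had no common direction, with 30 of 50 genes higher, 20 lower and a median log2 fold change of 0.02. Its other called member, the progenitor factor dmrta2.S, was higher, at 14.1, 11.5 and 11.9 CPM against 21.4, 20.1 and 16 CPM, with the groups apart (blocked limma-voom log2 fold change 0.70, adjusted p 0.0277). The glycine transporter slc6a5.S, a marker of glycinergic neurons, stood at 9.41, 18 and 6.85 CPM against 5.15, 11.4 and 2.96 CPM, lower in every pair and uncalled. Of 46 synaptic vesicle and active zone genes, 19 were higher and 27 lower (median log2 fold change -0.02), and 9 (19.6%) were lower in all 3 pairs against 0 higher. The immediate early genes, which neurons switch on when active, were 16 higher and 38 lower of 54 (median -0.08). In all 3 pairs 10 of them (18.5%) were lower and 1 higher. Over all genes, 12.9% were lower in all 3 pairs and 11.4% higher. No fit of all 6 libraries called a member of either list.

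Ventral forebrain factors leaned higher. These factors specify inhibitory and cholinergic neurons of the ventral telencephalon and hypothalamus. Of 48 genes, 34 were higher and 14 lower (median log2 fold change 0.12), and the pair medians were 0.10, 0.08 and 0.47. The groups were apart in 10 of them, all higher (2.43% of all genes). In blocked edgeR 16 had an unadjusted p under 0.05 on the higher side (2.73% of all genes) against 1 on the lower (2.99%). No fit of all 6 libraries called any of them. The LIM factor lhx8.L stood at 12.6, 10.7 and 10.1 CPM against 17.1, 16.2 and 19.9 CPM (blocked edgeR log2 fold change 0.67 ± 0.145, adjusted p 0.311). The homeobox gene dlx5.S stood at 27.4, 22.4 and 21.8 CPM against 35, 29.5 and 41.1 CPM (0.55 ± 0.126, adjusted p 0.343). In both genes the groups did not overlap. Skin also expresses dlx5, and skin markers were low in both libraries numbered 2. Among exposed libraries dlx5.S was lowest in replicate 2, and among controls it was lowest in replicate 3. Its copy dlx5.L stood at 37, 27.5 and 27.9 CPM in controls and at 50.4, 36.6 and 48.1 CPM after thioridazine. That copy was lowest in replicate 2 of each group, and its groups overlapped. The part of skin in these values was not tested. Of the midbrain and hindbrain factors 23 of 54 were higher and 31 lower, or 42.6% higher beside 49.1% of all genes. Their median log2 fold change was -0.05, and the pair medians were -0.20, -0.12 and 0.16. Without both libraries numbered 2 the split was 27 higher and 27 lower.

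Proliferation and proteasome genes were slightly and broadly higher, most of all in pair 3. Of 75 genes of mitosis and chromosome segregation, 69 were higher and 6 lower (median log2 fold change 0.23). In blocked edgeR 26 of them had an unadjusted p under 0.05, all higher (2.73% of all genes). Pair medians were 0.09, 0.13 and 0.39. The midbody organiser prc1.S stood at 35.4, 34.3 and 36 CPM in controls and at 44.8, 39.3 and 44.1 CPM after thioridazine, and the groups were apart, although the gene was not called (adjusted p 0.736 in blocked edgeR). DNA replication genes were 50 higher and 4 lower of 54 (median 0.15). Proteasome genes were 59 higher and 1 lower of 60, with a median of 0.14 and pair medians of 0.03, 0.00 and 0.36. Without the third pair, the proteasome split was 36 higher and 24 lower with a median of 0.02, and the mitosis split 62 higher and 13 lower with a median of 0.10.

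**Figure D5:**
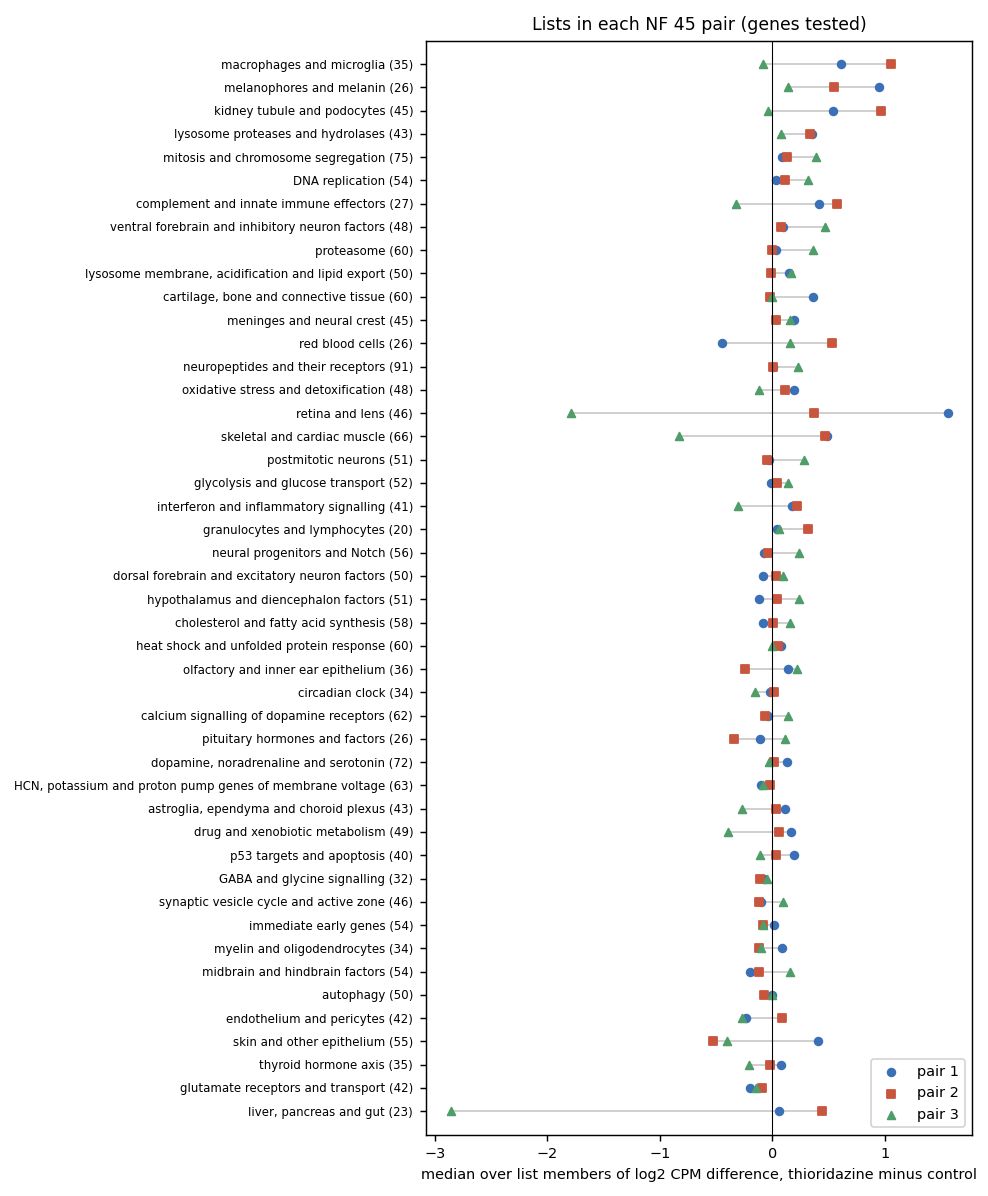
Median log2 CPM difference, thioridazine minus control, over the tested members of 46 gene lists, shown for each same-numbered pair at NF 45; the number tested is in brackets. The 3 pairs lie close together for glutamate receptors and transport (-0.20, -0.09 and -0.14) and far apart for liver, pancreas and gut (0.06, 0.44 and -2.86).

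The dopamine receptor genes, whose products the drug blocks, were not called. Among dopamine, noradrenaline and serotonin genes, 38 of 72 were higher and 34 lower. The groups were apart in 7 on the higher side (2.43% of all genes) and in 2 on the lower (1.56%). In blocked edgeR 8 had an unadjusted p under 0.05 on the higher side (2.73% of all genes) against 1 on the lower (2.99%). The D2 receptor drd2.L stood at 8.47, 12.8 and 9.16 CPM in controls and at 9.93, 15.1 and 9.7 CPM after thioridazine, and drd2.S at 9.56, 12.3 and 7.47 CPM against 7.96, 11.2 and 8.75 CPM, with overlapping groups in both. The dopamine transporter slc6a3.S stood at 8.91, 7.54 and 6.01 CPM against 11.2, 15.4 and 9.58 CPM. Its groups were apart, and blocked edgeR gave 0.69 ± 0.188 on the log2 scale (adjusted p 0.488). Tyrosine hydroxylase th.L, the first enzyme of dopamine synthesis, stood at 6.81, 8.23 and 4.93 CPM against 8.11, 11.1 and 10.3 CPM and was also higher in every pair. Of the stress lists, p53 targets and apoptosis had 19 of 40 genes higher and 21 lower, and heat shock and the unfolded protein response 36 of 60 higher and 24 lower.

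The NF 47 libraries allowed the called genes to be read in other samples. Together, 80 genes were called by at least 1 of 4 fits (edgeR with the block, DESeq2 without it, and DESeq2 and limma-voom with it), 69 of them higher and 11 lower. At NF 47 the log2 fold change had the same sign for 75 of these 80, against 62.3% of all genes, and all 3 NF 47 pairs had that sign for 53 of them, against 19.7% of all genes. The NF 47 libraries also entered the fits that made the calls, through each gene's spread. Genes steady between NF 47 pairs were therefore called more readily, and the counts are no independent check. The shares over all genes include genes with little difference at NF 45. For gh1.S the NF 47 values were 28.5, 41.6 and 24.5 CPM in controls and 19.3, 30.8 and 12 CPM after thioridazine, lower in every pair but overlapping (blocked edgeR log2 fold change -0.66 ± 0.144, adjusted p 0.746). For gpnmb.L they were 5.26, 8.32 and 11.2 CPM against 13, 20.5 and 28 CPM, and it was the 1 gene that blocked edgeR called at NF 47 (1.31 ± 0.134, adjusted p 0.0124). The prodynorphin gene pdyn.S, in contrast, had an NF 47 log2 fold change of 0.02. The difference between the NF 45 and the NF 47 effect was itself tested, and edgeR called 0 genes for it with and without the block (402 and 91 genes at an unadjusted p under 0.05). Without the block, DESeq2 and limma-voom also called 0 genes for it, with 85 and 578 at that level.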

How the data were processed

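Raw read counts are what the authors deposited, as a whole number for each of 37018 gene numbers in every library, with no normalization. Trimmomatic, HISAT2, HTSeq and DESeq2 were used, per the submitters' processing notes. Their versions, the build, the annotation and the strand setting are not given in the sources used here. Per the labels' protocols, libraries were made with an Illumina TruSeq kit and read single-end. An NCBI RefSeq table of assembly Xenopus_laevis_v10.1 named 33597 gene numbers, holding 99.33% of reads.

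Counts of all 12 libraries were fitted together in R 4.3.3 with edgeR 4.0.16 (filterByExpr, TMM, robust quasi-likelihood test), and 26570 genes were tested, with a median biological coefficient of variation of 20.8%. The Benjamini-Hochberg adjustment covered all genes tested. Alternatives were DESeq2 1.42.0, limma 3.58.1 (voom with quality weights), other scalings and filters, left-out libraries, summed .L and .S copies, and the replicate number as a block within stage. Deviations of same-numbered control and thioridazine libraries from their group means correlated at 0.575, 0.845 and 0.449 across genes, so the numbers were taken to pair the samples, although control 3 with thioridazine 1 reached 0.483 and control 1 with thioridazine 3 reached 0.359. The labels do not say what a number shares. CPM use TMM-scaled totals, and log2 CPM a prior count of 2. Counting intervals are Clopper-Pearson at 95% and cover counting error only. The fits were tested on simulated data.

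The members and gene lists were chosen with earlier results of these data known, so list counts set beside shares of all genes are no test. Genes named are those called by edgeR with or without the block or by DESeq2, those with the smallest blocked p among genes of 1 CPM or more with 1 sign in all pairs, and up to 3 such members a list; further genes, named because of their values, are said to be. Homeologous copies of named genes, drug targets (drd2) and genes called by limma-voom alone were named after their values were seen.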

Additional observations from a re-analysis of the deposited data

How the results depend on the processing

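The count of called genes depended on the replicate block. Without it, edgeR called 0 genes under other scalings and filters, with NF 45 libraries only, with summed .L and .S copies and without any single library (0 to 0), and limma-voom called 0, while DESeq2 called 9. With the replicate block the counts were 6 in edgeR, 2 with NF 45 libraries only, 5 with summed copies, 35 in DESeq2, 49 in DESeq2 without a low-count filter and 65 in limma-voom; the last-named DESeq2 setting and the limma-voom fits without a pair were chosen after seeing the data. Of the 6 genes of the blocked edgeR fit, only c1qtnf9b.L was called there with NF 45 libraries only. Leaving out 1 pair moved the blocked edgeR count to 10 (without number 1), 0 (number 2) and 155 (number 3). The blocked limma-voom count moved to 3, 3 and 289. Without number 1, and likewise without number 2, its 3 calls were all lower, with 0 higher. None of the 6 genes was among them. The cause of these shifts was not tested. The NF 45 minus NF 47 difference had 0 calls in every setting run. Among 196 genes followed, 14 of 4881 recomputed log2 fold changes turned sign, in 9 genes. Genes were followed when called, when of 1 sign in all 3 pairs, or when added by name. Choosing by call or shared sign in itself makes turned signs rare, so their number is no measure of stability. None of the 9 genes was called by edgeR with all 6 libraries (clca3p.S, ocm4.2.L and lum.S were called by blocked edgeR without both libraries numbered 3). Blocked limma-voom with all 6 libraries did call clca3p.S (adjusted p 0.0406) and ocm4.2.L (0.0454) higher. The log2 fold change of clca3p.S (1.08) was -0.47 with the replicate block and without both libraries numbered 2, and -0.67 in limma-voom likewise. It was -0.66 without the block, and from -0.83 to 1.53 with single libraries left out. Leaving out single libraries gave -0.05 to 0.56 for npc2.S, -0.96 to 0.16 for krt19.L, -1.07 to 0.05 for foxi1.L, -1.61 to 0.04 for krt61.S, -0.08 to 1.07 for lum.S, -0.76 to 0.03 for gfi1.S, -0.04 to 0.16 for lhx2.L and -0.26 to 1.95 for ocm4.2.L. With 3 libraries a group and 12843954 reads in the shallowest, differences of genes under 1 CPM rest on few reads.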

Other observations

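Some cell classes differed in ways that followed single libraries. Retina and lens genes had pair medians of 1.56, 0.37 and -1.79 on the log2 scale, and summed to 1564 CPM in control replicate 3 and 1508 CPM in thioridazine replicate 1, against 789 to 963 CPM in the other 4 libraries. The pigment epithelium genes rpe65.L (15.6, 12.3 and 17.7 CPM in controls, 26.8, 18.1 and 18 CPM after thioridazine) and rlbp1.S (23.8, 29.5 and 32.6 CPM against 43.9, 34.5 and 39.3 CPM) had groups that did not overlap, and neither was called. Liver, pancreas and gut genes had a median log2 fold change of -1.68, which was 0.29 without control replicate 3.

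Glial and choroid plexus genes showed no common direction, with 21 of 43 higher and 22 lower. Within them the water channel aqp1.L stood at 37.5, 43.1 and 38 CPM in controls and at 32.7, 26.6 and 29.6 CPM after thioridazine, and the glial potassium channel kcnj10.L at 41, 57.5 and 47.8 CPM against 37.6, 34.6 and 39.6 CPM. In both the groups were apart and neither was called (blocked edgeR adjusted p 0.445 and 0.656). The heat shock gene hspa1a.L stood at 3.76, 4.36 and 3.08 CPM against 1.74, 2.51 and 0.532 CPM, also apart and uncalled (0.363).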
